A study of Mus musculus with 4 samples.

Results

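The genes that make, bind and break down hyaluronan were followed in mouse embryonic fibroblasts, connective tissue cells grown from embryos. The members are 9 genes chosen by function: the hyaluronan synthases Has1, Has2 and Has3, the hyaluronidases Hyal1 and Hyal2, the receptor Cd44, the proteoglycan Vcan, and the cross-linking proteins Ptx3 and Tnfaip6. Of these 9, 8 had a probe set that the platform annotation assigns to them alone, among 19938 genes read in that way. The cells were wild type or labelled NFAT5/TonEBP knockout, and unsynchronised cells of each genotype spent 20 hours either in isotonic medium or in hypertonic medium, made with added NaCl to reach 450 mosmol/kg. A pool of 4 samples per combination of genotype and medium was hybridised to a single Affymetrix Mouse Gene 1.0 ST array, 4 arrays in all, so no spread between replicates exists and no test was made. The sources used here do not give the allele, the number of cell lines behind each genotype or the isotonic osmolality.

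NFAT5 is the transcription factor that drives the gene response to hypertonic stress. Hyaluronan is a long, unsulfated and strongly charged sugar polymer that holds water around cells. The synthases build it at the plasma membrane from UDP-glucuronic acid and UDP-N-acetylglucosamine and push the growing chain out of the cell. Outside, versican and CD44 bind the chain, while the product of Tnfaip6, TSG-6, transfers the heavy chains of inter-alpha-inhibitor onto it and pentraxin 3 (Ptx3) links those heavy chains together. Hyaluronidases cut the polymer, HYAL2 at the cell surface and HYAL1 in lysosomes. In fibroblasts this coat surrounds the cell and loosens its attachment to the matrix.

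Values are log2 signals as deposited, and differences are differences of log2 signals. Where a pair of values is given for a genotype, the first is from isotonic and the second from hypertonic medium. A gene was taken as measured in a comparison when it lay above the dim limit, which is the median signal over the probe sets of single genes, on at least 1 of the arrays compared. The dim limits ran from 5.38 to 5.44 over the 4 arrays. A difference was counted at 2-fold or more, which is 1 on the log2 scale. As a yardstick of measurement error, genes with 2 probe sets gave differences that varied with an SD per probe set of 0.15 in the wild-type response (hypertonic minus isotonic medium), 0.19 in the knockout-labelled response, 0.19 between genotypes in isotonic medium and 0.21 between genotypes in hypertonic medium. This SD covers disagreement between probe sets of a gene on the same arrays. It does not cover error shared by a whole array or the spread between cultures.

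The Nfat5 probe set read 7.74 and 8.19 in wild-type cells and 8.03 and 8.24 in knockout-labelled cells. The knockout label is therefore not borne out by this probe set, and the sources used here do not say where the deletion lies; a probe set outside it would not check the label. The cells are called knockout-labelled, and each direction below rests on the labels. Array correlations over all 35557 probe sets lay between 0.979 and 0.989, with the lowest values for the knockout-labelled hypertonic array.

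Among the synthases only Has2 read above the dim limit on any array. Has2, the main synthase of fibroblasts, read 6.28 and 5.08 in wild-type cells and 6.08 and 5.45 in knockout-labelled cells. Both isotonic arrays were high and both hypertonic arrays low, with the wild-type hypertonic value under its dim limit. Has2 was 2.29-fold lower in hypertonic than in isotonic wild-type cells, a log2 difference of -1.20, and 17 of 10134 measured genes had a more negative one. In knockout-labelled cells the same difference was -0.63, short of 2-fold, and 1051 of 10277 genes were more negative. Between genotypes Has2 differed by -0.20 in isotonic and 0.37 in hypertonic medium. Because the wild-type hypertonic signal is dim, the size of the wild-type difference is poorly determined. The knockout-labelled hypertonic signal lay only 0.04 above its dim limit. The sizes of the knockout-labelled response, of the hypertonic genotype difference and of the contrast between responses are therefore poorly determined too. In these pooled bulk RNAs, here and below, fewer cells of a type and less RNA per cell cannot be told apart.

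Has1 read 4.27 and 4.38 in wild-type cells and 4.13 and 3.97 in knockout-labelled cells. Has3 read 3.52 and 3.66 in wild-type cells and 3.55 and 3.89 in knockout-labelled cells. Both synthase genes lay more than 1 log2 unit under the dim limit on every array, so their differences describe background as much as expression, and they were counted in no comparison.

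**Figure D1:**
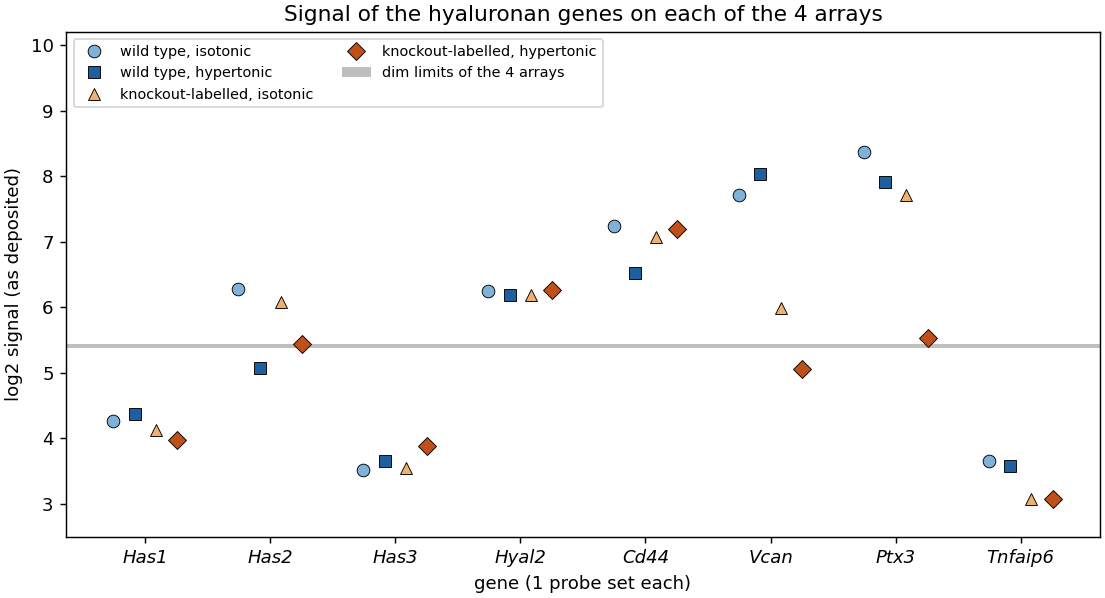
Log2 signal (vertical axis) of the 8 hyaluronan genes with a probe set of their own, with 1 point per gene and array and the dim limits of the 4 arrays as a grey band. Has1, Has3 and Tnfaip6 lie under the band on all 4 arrays, Hyal2 stays near 6.2, and Vcan and Ptx3 are lowest on the knockout-labelled hypertonic array, at 5.05 and 5.54.

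Of the hyaluronidases, Hyal2 was the steadiest member. Its signal was 6.25 and 6.19 in wild-type cells and 6.19 and 6.27 in knockout-labelled cells. The whole range over the 4 arrays was 0.08, and each gap between neighbouring values was under the SD per probe set, so no order of the conditions can be read from it. Hyal1 is read only together with its neighbour Naa80, by probe sets that carry both names, and is left without a value of its own.

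Cd44, the main cell surface receptor for hyaluronan, read 7.24 and 6.52 in wild-type cells and 7.08 and 7.19 in knockout-labelled cells. The wild-type hypertonic array stood 0.56 below the lowest of the others, while those others lay between 7.08 and 7.24. Cd44 differed by -0.72 in the wild-type response, where 169 of 10134 genes were more negative, and by 0.11 in the knockout-labelled response. In hypertonic medium the knockout-labelled cells read 0.67 higher than the wild-type cells. None of these reached 2-fold.

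Vcan encodes versican, the large proteoglycan that attaches to hyaluronan and helps organise the coat. Its signal was 7.71 and 8.03 in wild-type cells and 5.99 and 5.05 in knockout-labelled cells. Both wild-type arrays lay above both knockout-labelled arrays, with a gap of 1.73 between the groups, and every gap in the order was larger than the SD per probe set. The knockout-labelled cells were 3.31-fold lower in isotonic medium (log2 difference -1.73) and 7.89-fold lower in hypertonic medium (-2.98), where 31 of 10191 and 27 of 10374 measured genes were more negative. The last signal lies under the dim limit, so the size of the hypertonic difference is poorly determined. Vcan differed by 0.32 in the wild-type response and by -0.93 in the knockout-labelled response, and the difference of these responses was -1.25. The single probe set does not separate versican's splice forms.

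Ptx3, a secreted pentraxin of the innate immune response, read 8.37 and 7.91 in wild-type cells and 7.72 and 5.54 in knockout-labelled cells. Both wild-type arrays and the knockout-labelled isotonic array read between 7.72 and 8.37; the remaining array, knockout-labelled hypertonic, stood 2.18 below the lowest of them and just above its dim limit. In knockout-labelled cells Ptx3 was 4.53-fold lower in hypertonic than in isotonic medium (-2.18), and 4 of 10277 genes were more negative. The wild-type response had the same sign and a size of -0.45. Between genotypes Ptx3 differed by -0.65 in isotonic medium and by -2.38, or 5.20-fold, in hypertonic medium.

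Tnfaip6, whose product TSG-6 is the enzyme that loads heavy chains onto hyaluronan, read 3.66 and 3.58 in wild-type cells and 3.08 and 3.08 in knockout-labelled cells. All 4 values lay under the dim limits and were not counted. The wild-type arrays read about 0.51 to 0.58 higher than the knockout-labelled arrays in the matching medium, a gap within dim signal.

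Vcan and Ptx3 were the members at least 2-fold lower in knockout-labelled than in wild-type cells in hypertonic medium, so their promoter windows are shown. Each window runs from 250 bases before to 50 bases after the transcription start in RefSeq's GRCm38.p6 table, which was matched for 7 of the 9 members, all but Has2 and Has3. Capitals mark matches, on either strand, to TGGAAA, the core of the tonicity-responsive element that NFAT5 binds, to TGANTCA, an AP-1 element, and to the kappaB consensus; a TGGAAA match can overlap a kappaB match, and none did in these windows. The Vcan window lies at chr13:89742463-89742762 on the minus strand and the Ptx3 window at chr3:66219637-66219936 on the plus strand, each written 5′ to 3′ along its gene.
Vcan: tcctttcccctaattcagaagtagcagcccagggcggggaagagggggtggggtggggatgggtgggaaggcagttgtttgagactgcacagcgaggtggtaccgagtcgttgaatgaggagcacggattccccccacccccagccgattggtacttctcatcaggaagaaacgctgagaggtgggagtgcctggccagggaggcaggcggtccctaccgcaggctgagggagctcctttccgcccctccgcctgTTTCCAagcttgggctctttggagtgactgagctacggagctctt
Ptx3: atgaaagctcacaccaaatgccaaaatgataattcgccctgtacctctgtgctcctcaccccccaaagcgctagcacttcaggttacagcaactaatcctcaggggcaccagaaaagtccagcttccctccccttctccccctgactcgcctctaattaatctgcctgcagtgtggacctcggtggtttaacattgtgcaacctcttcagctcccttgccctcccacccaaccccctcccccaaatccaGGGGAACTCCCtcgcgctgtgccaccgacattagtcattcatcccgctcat
The Vcan window held 1 TGGAAA match, read as TTTCCA along the gene at bases 6 to 11 after the start. The Ptx3 window held none and had a kappaB match of 11 bases across the start, GGGGAACTCCC. Of the other members in the table, Tnfaip6 held a TGGAAA and a TGANTCA match and Hyal2 a kappaB match, while Has1, Hyal1 and Cd44 held no match to the 3 motifs. Over all 32851 windows of this length, 21.4% held TGGAAA, 7.81% TGANTCA and 8.46% the kappaB consensus. These are matches of letters, and binding was not measured.

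Set side by side, the 5 measured members, Has2, Hyal2, Cd44, Vcan and Ptx3, differed in which arrays were low. In the wild-type response 1 of 5, Has2, was at least 2-fold lower, against 0.414% of 10134 measured genes, and none was higher. The median over the 5 was -0.45, next to -0.02 over all measured genes. In the knockout-labelled response 1 of 5, Ptx3, was at least 2-fold lower, against 3.08% of 10277 genes, with a median of -0.63 next to -0.09. In isotonic medium 1 of 5, Vcan, was lower in knockout-labelled cells, against 1.28% of 10191 genes, with a median of -0.20 next to 0.03. In hypertonic medium 2 of 5, Vcan and Ptx3, were lower, against 6.43% of 10374 genes, with a median of 0.08 next to -0.01.

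A different gene thus led each response. The difference of the responses, knockout-labelled minus wild type, was past 2-fold for the same 2 members, Vcan at -1.25 and Ptx3 at -1.73, against 5.53% of 10542 genes at least 2-fold negative. It was 0.83 for Cd44, 0.56 for Has2 and 0.14 for Hyal2. Each array enters 2 of the 4 comparisons between arrays, so these comparisons are not independent of each other.

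**Figure D2:**
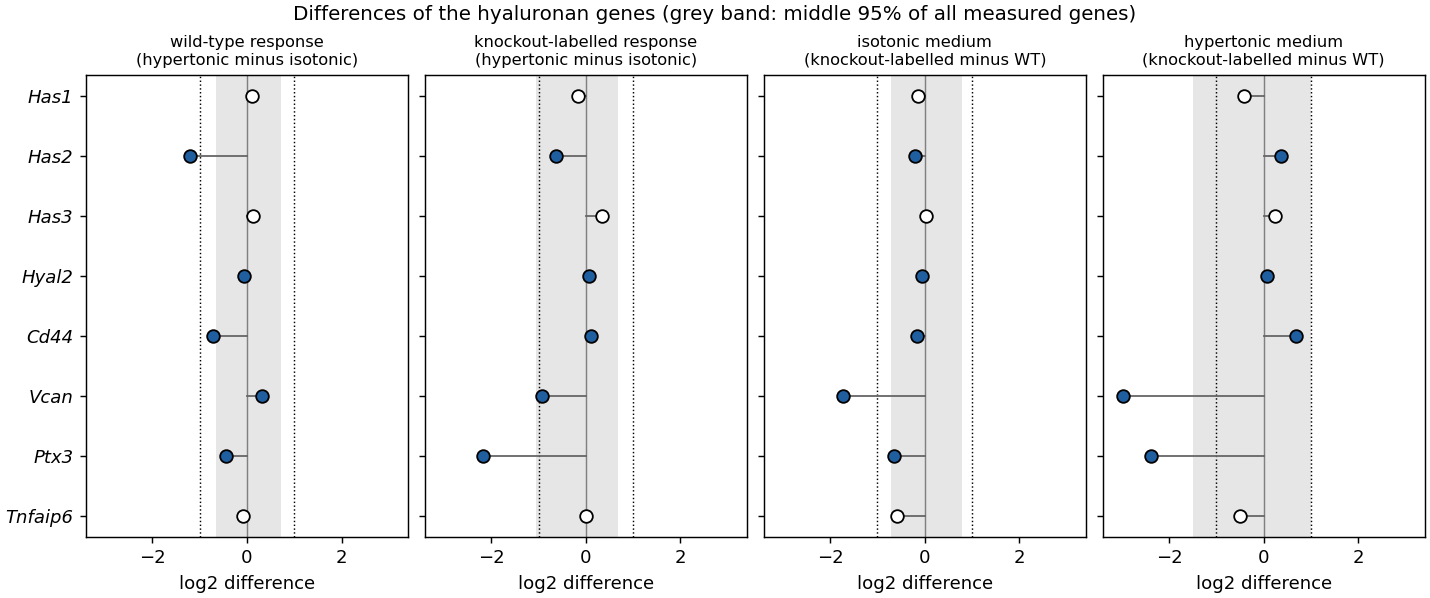
Log2 difference (horizontal axis) of each hyaluronan gene in the 4 comparisons between arrays, with filled points for measured genes, open points for genes under the dim limit on both arrays, dotted lines at 2-fold and a grey band holding the middle 95% of all measured genes. Has2 at -1.20 passes 2-fold in the wild-type response and Ptx3 at -2.18 in the knockout-labelled response, while Vcan lies at -1.73 and -2.98 in the genotype comparisons.

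The surrounding pathway was read from 7 lists, of which 72 of 78 genes had a probe set and 43 were above the dim limit on some array. In the wild-type response 1 of 42 measured related genes was at least 2-fold higher and 3 were lower, against 1.01% and 0.414% of all measured genes. Among the lower genes, Pdgfb at -1.03, fell just short of 2-fold after quantile normalization, cyclic loess normalization or centring. In the knockout-labelled response none of 43 was higher and 2 were lower, against 0.379% and 3.08%. In isotonic medium 3 of 43 were higher and none was lower in knockout-labelled cells, against 1.59% and 1.28%, and in hypertonic medium 2 of 42 were higher and 3 were lower, against 2.57% and 6.43%. Among the higher genes there, Hk2 at 1.01, fell short of 2-fold on centring (0.98).

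Precursor supply was measured through 11 of its 13 genes. All 11 lay below 0 in the knockout-labelled response as deposited, and 10 of 11 after quantile or cyclic loess normalization, with none past 2-fold. About 60.1% of all 10277 measured genes also lay below 0 in that response as deposited. The list median there was -0.27 as deposited, next to -0.09 for all genes, and -0.20 after either normalization. In the wild-type response 7 of 11 lay below 0 as deposited and 6 of 11 after quantile, cyclic loess or median scaling, with a median of -0.07 as deposited. The most negative in the knockout-labelled response were 3 enzymes of UDP-N-acetylglucosamine synthesis. Gfpt1, the entry enzyme of the hexosamine pathway, read 9.04 and 8.85 in wild-type cells and 8.91 and 7.95 in knockout-labelled cells, a knockout-labelled response of -0.96. Pgm3, which moves the phosphate of N-acetylglucosamine, differed by -0.85 and Gnpnat1, the acetylating enzyme, by -0.83 in that response, against -0.11 and -0.02 in wild-type cells. Gnpnat1 read 7.72 and 7.70 in wild-type cells and 8.28 and 7.45 in knockout-labelled cells, so its response holds a high isotonic value as well as a low hypertonic one.

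On the glucuronic acid side, Ugdh, which makes UDP-glucuronic acid, differed by 0.17 in the wild-type and -0.27 in the knockout-labelled response. Ugp2, which makes UDP-glucose, read 7.50 and 7.70 in wild-type cells and 8.75 and 8.51 in knockout-labelled cells, and was past 2-fold between genotypes in isotonic medium (1.25). Pgm1, which feeds glucose 1-phosphate into that step, was also past 2-fold there (1.32). Hexokinase 2 (Hk2) read 7.79 and 6.53 in wild-type cells and 7.67 and 7.54 in knockout-labelled cells. Like Cd44, Hk2 was low on the wild-type hypertonic array alone, by -1.26 in the wild-type response.

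Of the other degradation genes 3 of 10 were measured. Cemip2, listed under its older symbol Tmem2 and encoding a cell surface protein linked to hyaluronan breakdown, read 6.41 and 7.42 in wild-type cells and 7.08 and 6.88 in knockout-labelled cells. It was the 1 related gene at least 2-fold higher in the wild-type response (1.01), and differed by -0.20 in the knockout-labelled response. The lysosomal enzymes Hexa and Gusb, which trim hyaluronan fragments, differed by at most about 0.45 in size in any comparison between arrays. Cemip, also on this list, lay under the dim limit throughout.

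Other receptors and binding proteins were mostly dim, with 5 of 16 measured and none past 2-fold. Layn (layilin) and Hmmr, both hyaluronan receptors, differed by -0.63 and -0.59 in the knockout-labelled response and by 0.19 and close to 0 in the wild-type response. Among inter-alpha-inhibitor chains, whose heavy chains TSG-6 transfers, only Itih2 read above a dim limit, on the knockout-labelled isotonic array at 5.68 against 4.58 in wild-type isotonic cells. The wild-type signal lies under the dim limit, so the size of the Itih2 difference is poorly determined. The CD44 linker and shedding list, with the membrane-cytoskeleton linkers ezrin, radixin and moesin and the protease Mmp14, had 7 of 10 measured and none past 2-fold. Its most different member was the moesin gene Msn, at 0.36 between genotypes in hypertonic medium.

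The versican-cleaving proteases had 4 of 6 genes measured, and 2 of these were at least 2-fold lower in the knockout-labelled response, or 1, Adamts5, after quantile or cyclic loess normalization. Over all measured genes 3.08% were that much lower as deposited. Adamts5 read 8.72 and 8.10 in wild-type cells and 8.34 and 6.45 in knockout-labelled cells, a knockout-labelled response of -1.89. Adamts1 read 8.78 and 8.40 in wild-type cells and 9.28 and 8.22 in knockout-labelled cells, a knockout-labelled response of -1.06. Adamts5, like Vcan, was lowest on the knockout-labelled hypertonic array, whereas Adamts1 stood 0.50 higher on the knockout-labelled than on the wild-type isotonic array and its hypertonic values differed by less than the SD per probe set. Adamts9 differed by 0.77 on its brightest probe set, but its 6 probe sets did not share a sign in that response, with 2 above and 4 below 0.

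The list of regulators of the synthases, which holds growth factors and inflammatory signals, had 12 of 17 measured. Pdgfb, the chain of a growth factor that induces Has2 in fibroblasts, read 6.27 and 5.25 in wild-type cells and 6.94 and 7.82 in knockout-labelled cells. Its order over the 4 arrays was the reverse of that of its receptor genes. Pdgfra read 6.32 and 7.14 in wild-type cells and 5.98 and 5.57 in knockout-labelled cells, and Pdgfrb read 9.32 and 10.01, then 8.74 and 8.46. In hypertonic medium the knockout-labelled cells therefore had Pdgfb 2.57 higher and Pdgfra and Pdgfrb 1.57 and 1.55 lower on the log2 scale. The wild-type hypertonic Pdgfb signal lies under its dim limit, so the size of the Pdgfb difference is poorly determined. Hbegf, a ligand of the EGF receptor, differed by -1.08 in the wild-type response and 0.23 in the knockout-labelled response, and the inflammatory gene Ptgs2 differed by 0.15 and 0.45.

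**Figure D3:**
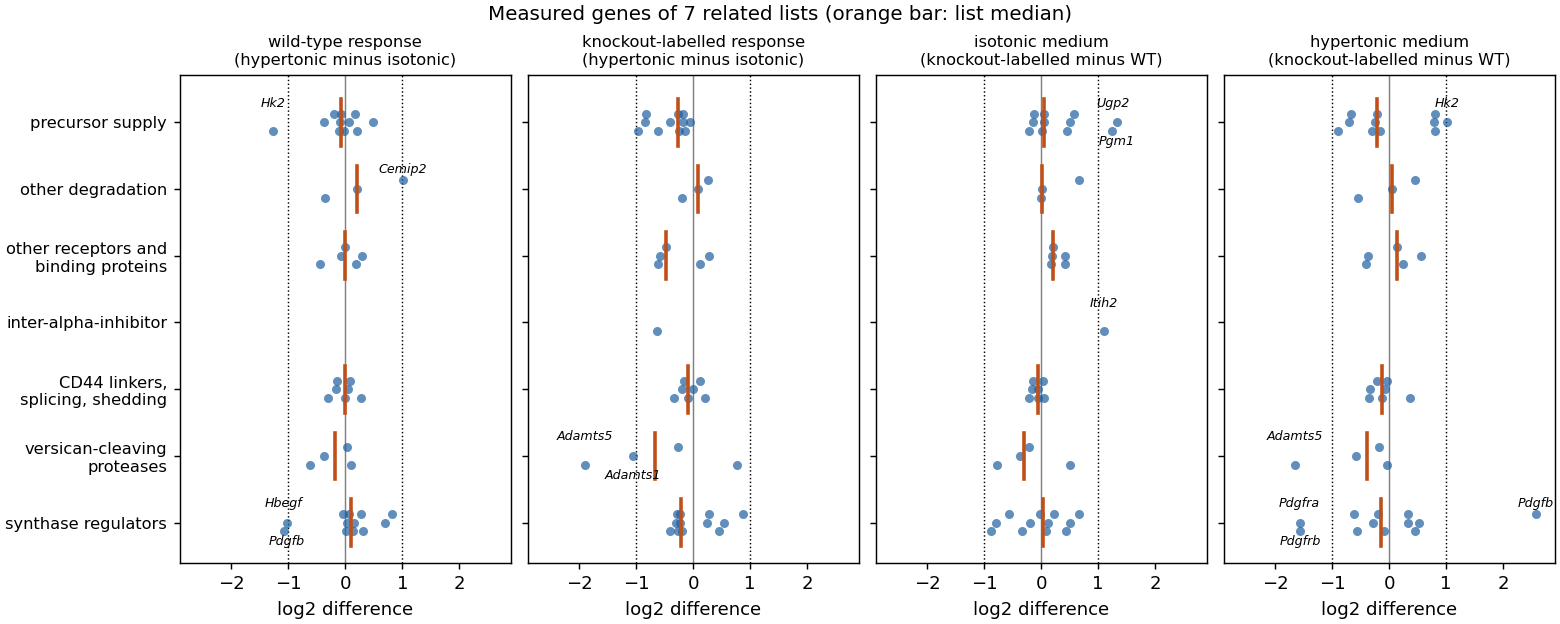
Log2 difference (horizontal axis) of each measured gene of the 7 related lists in the 4 comparisons between arrays, with 1 point per gene, an orange bar at the median of each list with more than 1 measured gene, dotted lines at 2-fold and names for the genes past it. The 11 precursor supply genes lie left of 0 in the knockout-labelled response as deposited (10 of 11 after quantile or cyclic loess normalization), where Adamts5 and Adamts1 are at -1.89 and -1.06. About 60.1% of all measured genes are below 0 in that response as deposited.

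The profiles most like those of Has2, Vcan and Ptx3, the members whose signal ranged over 1 or more, were found by the Euclidean distance between profiles over the 4 arrays, each centred on its own mean, among 10224 other genes. For Has2 they were Polr3g, an RNA polymerase III subunit (distance 0.15), Fkbp11, a protein-folding enzyme (0.16), and the scaffold gene Mpp6 (0.18). For Vcan they were the chemokine gene Cxcl5 (0.23), Rcn3, a calcium-binding protein of the secretory pathway (0.24), and the ephrin receptor gene Epha3 (0.24). For Ptx3 the nearest were farther off: Sgcd, encoding delta-sarcoglycan (0.51), the peripheral myelin protein gene Pmp22 (0.51) and Adamts5 (0.55). With 4 arrays, such likeness describes these values and is no measure of shared control.

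**Figure D4:**
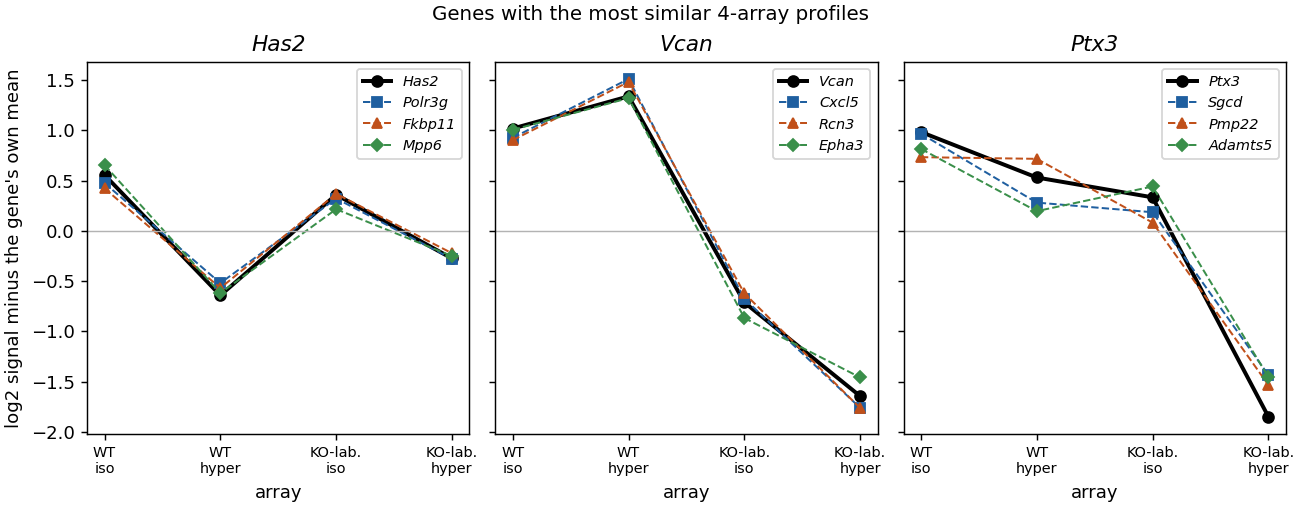
Log2 signal minus each gene's own mean over the 4 arrays (vertical axis) on each array, for Has2, Vcan and Ptx3 (black) and the 3 genes nearest to each; lines only join the points. The Has2 profile is low on both hypertonic arrays, the Vcan profile on both knockout-labelled arrays and the Ptx3 profile on the knockout-labelled hypertonic array.

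Fibroblast markers, like Vcan and Ptx3, were lower in knockout-labelled than in wild-type hypertonic cells. Of 9 fibroblast markers 7 were measured, and in hypertonic medium all 7 were lower in knockout-labelled cells, 5 of them at least 2-fold, with a median of -1.55. Over all measured genes 6.43% were that much lower, with a median of -0.01. In isotonic medium 6 of the 7 were lower in knockout-labelled cells, 2 of them at least 2-fold, against 1.28% of all measured genes. The median there was -0.57, next to 0.03 for all genes. S100a4 differed most, by -2.24 in isotonic and -3.81 in hypertonic medium. The summed fibroblast signal, as log2, was 14.12 and 14.29 in wild-type cells and 13.85 and 13.29 in knockout-labelled cells. The collagen gene Col1a1 read 12.43 and 12.57 in wild-type cells and 11.76 and 10.93 in knockout-labelled cells, and vimentin (Vim), whose hypertonic difference of -0.07 is within the SD per probe set, between 12.50 and 12.72 throughout. The small proteoglycan markers Dcn and Lum lay under the dim limit on all 4 arrays, so they were not counted as measured in either genotype. A signal under this limit does not show absence.

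Smooth muscle markers differed between genotypes in both media. Of 4 markers 3 were measured and all 3 were at least 2-fold lower in knockout-labelled cells in each medium, Tagln by a log2 difference of -2.08 in isotonic and -2.30 in hypertonic medium, while Myh11 was dim throughout. Over all measured genes 1.28% in isotonic and 6.43% in hypertonic medium were that much lower. Their summed signal was 11.72 and 12.04 in wild-type cells and 10.09 and 9.66 in knockout-labelled cells. The summed mesothelial signal (4 markers, Lrrn4 dim throughout) was 9.23 and 8.69 in wild-type cells and 8.49 and 8.36 in knockout-labelled cells. The summed epithelial signal (4 markers, Epcam dim throughout) was 7.63 and 7.62 in wild-type cells and 7.30 and 7.87 in knockout-labelled cells, highest on the array where Vcan and Ptx3 were lowest. The keratin gene Krt18 differed by 0.91 and Krt8 by 0.32 in the knockout-labelled response. Cdh1, the other measured epithelial marker, was instead lower in knockout-labelled cells, by -0.71 in isotonic and -0.84 in hypertonic medium. Its knockout-labelled signals lay under the dim limit. Endothelial sums (3 markers, all dim) were 5.40 and 5.31 in wild-type cells and 5.16 and 5.78 in knockout-labelled cells. They lie within dim signal, so no order was read from them. Leukocyte sums lay between 6.35 and 6.40 over 4 markers with Ptprc, Adgre1 and Csf1r dim. The part of these markers in the Vcan and Ptx3 differences was not tested.

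**Figure D5:**
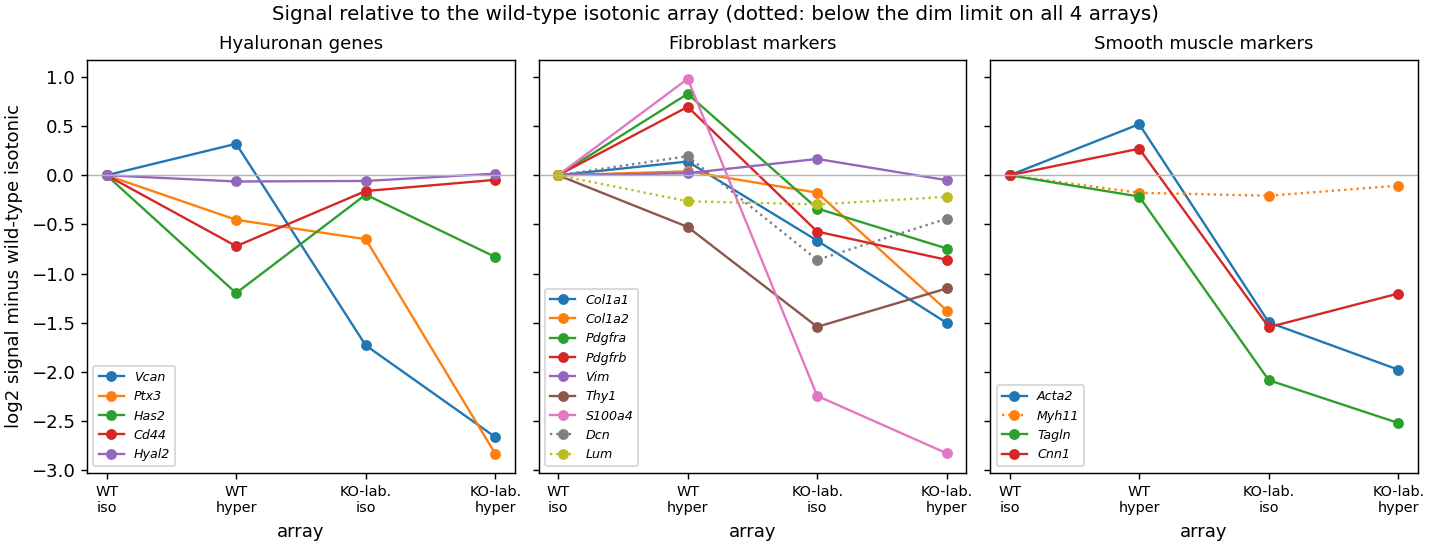
Log2 signal minus that of the wild-type isotonic array (vertical axis) on each array, for the 5 measured hyaluronan genes, the 9 fibroblast markers and the 4 smooth muscle markers, with dotted lines for genes under the dim limit on all 4 arrays; lines only join the points. Vcan is low on both knockout-labelled arrays, as are Tagln and Acta2, whereas Cd44 stays at 7.08 and 7.19 and Hyal2 at 6.19 and 6.27 on the knockout-labelled arrays.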

How the data were processed

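cRNA primed at poly(A) tails was hybridised to 1 array per group, per the labels' protocols, from pools of 4 samples, per the series' design text. The deposited table gives 1 log2 signal per probe set and array, made by the authors; no source states the scale, and log2 is inferred from values between 1.57 and 13.94. MAS5 is named, without a version, per the submitters' processing notes; how background was corrected and arrays were normalized is not stated there. Without replicates or scanner files, precision is limited by the number of arrays. Values were used as deposited.

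Of 35557 probe sets, 21789 carried 1 gene symbol, 1621 several and 12147 none; the last 2 kinds were left out. The brightest probe set stood for a gene, and each member with a value had 1. The members and lists were chosen with earlier results of these data known. Named genes were all members, Nfat5, listed genes past 2-fold in a comparison or, failing that, the most different of their list, and the 3 nearest profiles of each member ranging over 1 or more; other listed genes and the promoter motifs were chosen after values were seen. The counting was tested on simulated data. Alternatives were quantile and cyclic loess normalization, centring, a 1.5-fold limit, averaged probe sets and other dim limits (none, 75th percentile). Python 3.11.15, pandas 2.3.3, numpy 2.4.6, matplotlib 3.10.9, R 4.3.3 and limma 3.58.1 (normalization only) were used.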

Additional observations from a re-analysis of the deposited data

Results flagged for a closer look

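For Vcan the responses to hypertonic medium had opposite signs in the genotypes, 0.32 in wild-type and -0.93 in knockout-labelled cells, a difference of -1.25. As deposited, the same held for 4 of the 6 related genes, among 43 measured, with a difference of responses past 2-fold. Over all 10542 measured genes 6.94% had a difference of responses past 2-fold in either direction. Cemip2 had responses of 1.01 and -0.20 and a difference of -1.21. Its knockout-labelled response was -0.04 after quantile normalization, -0.13 after cyclic loess normalization and -0.22 after centring. The SD per probe set there was 0.19, so the sign of that response is poorly determined. Pdgfra had 0.83 and -0.41 and a difference of -1.23. Pdgfb had -1.03 and 0.88 and a difference of 1.90, and Hbegf had -1.08 and 0.23 and a difference of 1.31. With 1 array per group these differences between genotypes were not tested. The Vcan signal in knockout-labelled hypertonic cells and the Pdgfb signal in wild-type hypertonic cells lay under the dim limit.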

How the results depend on the processing

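Each value of the 8 members with a probe set of their own, in each of the 5 comparisons, moved by less than the SD per probe set under quantile normalization, cyclic loess normalization and centring, the 3 alternatives that can alter a member's value. The other 4 alternatives alter only which genes are counted. Over the deposited values and these 3, Has2 in the wild-type response ranged from -1.20 to -1.16, Ptx3 in the knockout-labelled response from -2.21 to -2.08, and Vcan from -1.75 to -1.70 in isotonic and -3.01 to -2.97 in hypertonic medium. Counts of members moved with the limits: at 1.5-fold, 2 members instead of 1 passed in the wild-type response (7.42% of all measured genes), 3 instead of 1 in the knockout-labelled response (16.3%) and 2 instead of 1 in isotonic medium (8.78%). At that limit 3 instead of 2 passed between genotypes in hypertonic medium (23.8%) and in the difference of responses (23.2%). The added member was Cd44, at 0.67 and 0.83, opposite in sign to Vcan and Ptx3. With the dim limit at the 75th percentile, 0 instead of 1 passed in the wild-type response, because Has2 was then no longer measured. Under that limit 2 of 32 related genes instead of 4 of 42 passed in the wild-type response. Between genotypes in hypertonic medium 3 of 31 instead of 5 of 42 passed. Over all genes under that limit, 49 of 5187 were higher and 20 lower in the wild-type response. In hypertonic medium 138 of 5446 were higher and 319 lower in knockout-labelled cells. The share of higher among all counted genes in the knockout-labelled response was 10.96% as deposited and 22.66% after quantile normalization, which moved the median difference of all measured genes by 0.10. No paired analysis was possible because each group has 1 array. Has1, Has3 and Tnfaip6 are limited by signal near background, and no value here has a replicate check.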

Other observations

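The probe sets annotated to both Naa80 and Hyal1, which cannot be assigned to either gene, read alike. In isotonic and then hypertonic medium, the brighter gave 6.14 and 6.43 in wild-type cells and 6.40 and 6.71 in knockout-labelled cells, and the dimmer gave 5.09 and 5.49, then 5.54 and 5.84. On both probe sets the hypertonic signal was higher than the isotonic signal in each genotype, by 0.29 to 0.40, and the knockout-labelled signal higher than the wild-type signal in each medium, by 0.26 to 0.45.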
